A study of Mus musculus with 6 samples.

Results

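The genes of autophagy, the cathepsins and the subunits of the lysosomal proton pump were followed in mouse CD8+ T cells cultured with vehicle or with aminooxyacetic acid (AOA), an inhibitor of enzymes that use pyridoxal phosphate, the active form of vitamin B6. Members were taken by symbol: every Atg gene with a number, every cathepsin, every V-ATPase subunit or accessory protein named Atp6v or Atp6ap, and 13 genes listed by name (the ATG8 genes, Sqstm1, Ulk1, Ulk2, Becn1, Lamp1, Lamp2, Tfeb and Tfe3). This gave 61 of the 11922 genes in the table, namely 27 autophagy genes, 13 cathepsins, 17 V-ATPase genes and 4 genes of the lysosomal membrane and its regulators. The choice used no measured value, but it was made with earlier results of these data known.

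CD8+ T cells were taken with anti-CD8α beads from spleens of C57BL6/J mice. The study's methods state that animals of both sexes, older than 6 weeks, served in its experiments, without saying which gave these cells. They were stimulated with anti-CD3 and anti-CD28 beads for 72 hours, washed and expanded for 4 more days. Every culture received IL-2 at 100 units/ml. The AOA cultures received 0.25 mM AOA from the start and the vehicle cultures received water. RNA was collected on day 7 from 3 mice, each of which gave a vehicle culture and an AOA culture, so each group had 3 libraries. All donors were of this 1 strain and the groups differed in AOA alone. The cells are a bulk population, in which fewer cells of a type and less RNA per cell cannot be told apart.

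Libraries held 12881962 to 18934869 counts with vehicle and 18696114 to 21997078 with AOA, and members took 0.516% to 0.634% of the counts with vehicle and 0.441% to 0.451% with AOA. Vehicle 2 and AOA 1 stood farthest from the other libraries of their groups, with a median absolute log2 distance of 0.28 over all genes for each. Vehicle 2 mattered most for the cathepsins, where this distance was 0.40, and values that leaving it out moved strongly are given both ways. Cd8a, which defines the lineage, stood at 654 to 914 CPM (counts scaled to library size) with vehicle and 1450 to 1700 CPM with AOA, and Cd8b1 at 779 to 1090 and 1340 to 1620 CPM. With 7 genes shared by all T cells, these 9 markers summed to 5720 to 6460 CPM with vehicle and 7310 to 8100 CPM with AOA. Of the 9, Cd8a, Cd8b1 and Thy1 were called higher and Cd2 and Cd5 lower. The 4 CD4 T cell markers summed to 158, 168 and 210 CPM with vehicle and 33.0, 54.3 and 47.8 CPM with AOA. Of these, Cd4, Cd40lg and Zbtb7b were called lower, while Foxp3 had a log2 fold change of 0.36 (adjusted p = 0.127) and 1 marker was called higher without vehicle 2.

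Autophagy wraps cytoplasm in a double membrane and delivers it to the lysosome. The ULK1 kinase complex and the Beclin 1 lipid kinase complex start the membrane, ATG9 and ATG2 proteins supply it with lipid, and a pair of ubiquitin-like systems attach ATG8 proteins (the LC3 and GABARAP families) to it. The lysosome is acidified by the V-ATPase and digests its content with cathepsins, and TFEB and TFE3 are transcription factors that can switch on genes of both compartments together. In T cells, autophagy is known for its part in the survival of memory cells, and several cathepsins act in or beside the cytotoxic granules.

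Of the 59 members with enough counts to be tested, 5 were higher and 22 were lower with AOA at an adjusted p under 0.05 in edgeR, and 32 were not called. The whole table moved widely, since 53.0% of the 11759 genes tested were called, 26.2% higher and 26.8% lower, and the median log2 difference was -0.02. Among the members 45.8% were called, 8.47% higher and 37.3% lower, and the median log2 difference was -0.18. The share called was near that of all genes and is not read as a result. The split between directions was 5 to 22, and without vehicle 2 it was 11 to 23. Ctsf, Atg4c and Atp6v0a1 passed the filter on low counts through the vehicle libraries only, so their direction was largely fixed by the filter. In 25 members all AOA libraries lay below all vehicle libraries and in 8 all lay above, against 31.1% and 31.0% of all genes (62.1% for both directions). An exact permutation test of any single gene in 3 against 3 libraries cannot go below p = 0.1, so the tests given here are those of the fit across all genes. Among the called members 11 fell by at least 1 on the log2 scale, Ctsf, Atg4c and Atp6v0a1 among them, and 0 rose by as much. Of all 11759 genes tested, 1663 were called and fell by at least 1, and 1418 were called and rose by as much.

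**Figure D1:**
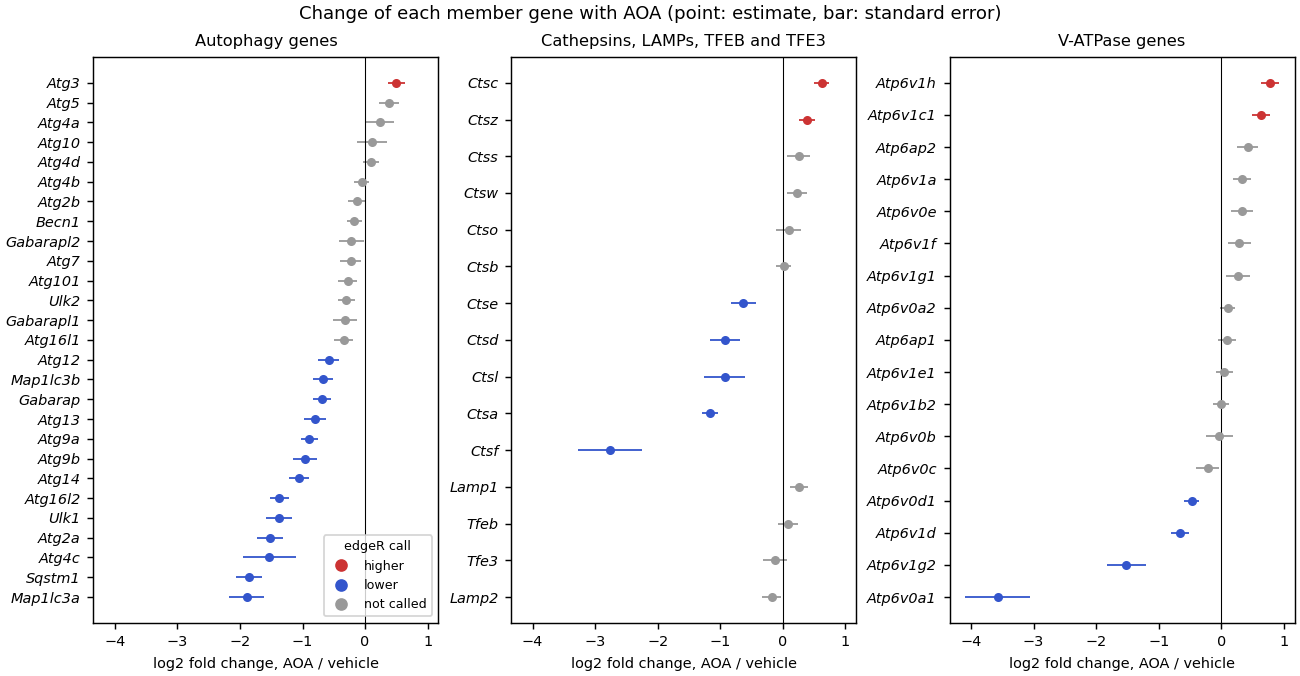
Log2 fold change (AOA minus vehicle) of the 59 tested members, with standard errors as bars and the edgeR call as colour, in panels for autophagy genes, for cathepsins with Lamp1, Lamp2, Tfeb and Tfe3, and for V-ATPase genes. Most called autophagy genes lie to the left of 0, with Atg3 the exception at 0.50, while called V-ATPase and cathepsin genes lie on both sides.

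Summed over each family, autophagy genes and cathepsins were lower with AOA. In CPM the autophagy genes summed to 1980, 2010 and 1960 with vehicle and to 1250, 1260 and 1210 with AOA. The cathepsins summed to 1870, 2510 and 1930 CPM with vehicle and to 1610, 1550 and 1580 CPM with AOA. The V-ATPase genes summed to 1070, 1180 and 1110 CPM with vehicle and to 1290, 1110 and 1150 CPM with AOA. The autophagy and cathepsin sums did not overlap between groups, and the V-ATPase sums did. Ctsd carried most of the cathepsin difference, and without Ctsd and Ctsa the sum was 853, 880 and 920 CPM with vehicle and 976, 927 and 964 CPM with AOA.

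Tfeb and Tfe3, which encode transcription factors that act on these genes, were not called. Tfeb stood at 26.5, 19.7 and 23.0 CPM with vehicle and 24.1, 23.2 and 25.8 CPM with AOA, a log2 fold change of 0.08 (SE 0.16, adjusted p = 0.691). Tfe3 stood at 38.3, 37.6 and 38.4 CPM with vehicle and 25.0, 42.4 and 37.0 CPM with AOA, a log2 fold change of -0.13 (SE 0.19, adjusted p = 0.591). In each gene the groups overlapped, and the low Tfe3 value belonged to mouse 1 alone. Both proteins are held in the cytoplasm by phosphorylation, which RNA levels do not show. Of 20 tested genes that control TFEB and TFE3, 4 were higher and 6 were lower, beside 26.2% and 26.8% of all genes, so nothing is read from the counts. Among them rose Lamtor3 (0.76) and Lamtor1 (0.56, a call lost with the filter of 10 CPM and without vehicle 1, vehicle 3 or AOA 1, adjusted p up to 0.122), which anchor mTORC1 signalling at the lysosome. Of the other Lamtor genes listed, Lamtor4 was called lower (-0.55, adjusted p = 0.0195), and Lamtor2 (0.06) and Lamtor5 (0.50) were not called. There also fell Rptor (-0.76), the mTORC1 substrate adaptor, Flcn (-0.72), which acts on the Rag GTPases, and Zkscan3 (-0.93), a repressor of autophagy genes, all values being log2 fold changes.

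TFEB and TFE3 bind the E-box CACGTG, and a longer form of it, known as the CLEAR element, is common upstream of lysosomal genes. Promoter windows of 300 bases around the RefSeq start of each gene were searched for the E-box, for its 8-base extension TCACGTGA and for the 10-base CLEAR element. All of these read the same on both strands, and each longer one contains the shorter. A window was given for 48 of the 61 members. It held CACGTG in 13 of them (27.1%), against 11.9% of the 9438 tested genes with a window. The 8-base form was in 6 members (12.5%), against 2.34% of those genes, and the 10-base form in 0 members, against 0.858%. The 6 members with TCACGTGA did not move one way, with Ctsa, Ctsd and Atp6v0d1 lower, Atg3 higher, and Atp6v0e and Atp6v1a not called. Among all tested genes the 8-base form was in 2.15% of those higher, 2.52% of those lower and 2.35% of those not called. A match of letters is a description of the window, not a bound site. The promoters of these 6 members are printed first, since they carry the same letters over opposite changes, and that of Lamp1 follows because it holds 4 E-boxes. All are from the mouse assembly GRCm38.p6, read 5′ to 3′ on the strand of the gene, with TCACGTGA in capitals, or CACGTG in the case of Lamp1. Each ends at the base before the start site, except that the stretches of Atp6v0d1 and Atp6v0e run past it because their match spans or follows it. Ctsa has a second TCACGTGA just after its start, outside the stretch shown.
Ctsd (chr7:142387828-142387977, minus strand): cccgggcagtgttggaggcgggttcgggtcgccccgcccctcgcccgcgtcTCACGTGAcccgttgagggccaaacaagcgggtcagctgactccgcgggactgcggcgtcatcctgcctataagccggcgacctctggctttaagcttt
Ctsa (chr2:164833623-164833772, plus strand): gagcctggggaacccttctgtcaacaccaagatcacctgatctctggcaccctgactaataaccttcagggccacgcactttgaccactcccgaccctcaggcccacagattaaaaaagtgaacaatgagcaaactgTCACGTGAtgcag
Atp6v0d1 (chr8:105566061-105566210, minus strand): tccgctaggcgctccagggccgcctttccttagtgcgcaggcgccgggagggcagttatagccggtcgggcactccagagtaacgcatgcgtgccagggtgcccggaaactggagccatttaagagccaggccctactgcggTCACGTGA
Atg3 (chr16:45158679-45158828, plus strand): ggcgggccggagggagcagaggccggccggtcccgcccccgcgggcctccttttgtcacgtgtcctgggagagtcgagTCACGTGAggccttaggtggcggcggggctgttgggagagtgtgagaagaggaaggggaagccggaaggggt
Atp6v1a (chr16:44139260-44139409, minus strand): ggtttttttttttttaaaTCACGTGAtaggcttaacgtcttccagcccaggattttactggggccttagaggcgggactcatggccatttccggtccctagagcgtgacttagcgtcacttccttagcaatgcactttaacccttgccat
Atp6v0e (chr17:26676386-26676415, plus strand): ttagcgcgccgaTCACGTGAgcctctgttg
Lamp1 (chr8:13159011-13159160, plus strand): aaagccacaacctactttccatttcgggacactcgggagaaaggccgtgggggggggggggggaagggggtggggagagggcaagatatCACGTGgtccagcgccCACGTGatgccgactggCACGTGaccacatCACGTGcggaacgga

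The kinase that starts autophagy fell, and its paralogue did not pass the test. Ulk1 (chr5:110784488-110810097 in GRCm38) stood at 96.4, 58.8 and 94.0 CPM with vehicle and 25.7, 34.1 and 35.9 CPM with AOA. Every AOA library lay below every vehicle library, and the log2 fold change was -1.38 (SE 0.21, adjusted p = 0.000732), a level 2.61-fold lower. Ulk2, which can act in place of Ulk1, stood at 60.7, 72.0 and 71.4 CPM with vehicle and 49.1, 55.5 and 60.7 CPM with AOA, a log2 fold change of -0.30 (SE 0.14, adjusted p = 0.0891). Of their partners in the kinase complex, Atg13 fell by 0.80 on the log2 scale (SE 0.17, adjusted p = 0.00328) and Atg101, which stabilises Atg13, had a log2 fold change of -0.28 (SE 0.15, adjusted p = 0.148).

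Becn1, which encodes Beclin 1, was nearly level, at 138, 134 and 129 CPM with vehicle and 121, 119 and 119 CPM with AOA. Its log2 fold change was -0.17 (SE 0.12, adjusted p = 0.253), although the groups did not overlap. Antisense Cntd1 covers 43.9% of the exon bases of Becn1, and no source used here says whether counting used strand. Atg14, the subunit that directs Beclin 1 to autophagy, fell in all 3 mice, from 18.7, 19.1 and 18.0 CPM to 9.06, 8.03 and 9.68 CPM, a log2 fold change of -1.06 (SE 0.16, adjusted p = 0.00073). The other core subunits, outside the rule and named after their values were seen, were called lower by less. Pik3c3, the lipid kinase, had a log2 fold change of -0.42 (SE 0.13, adjusted p = 0.0201), and Pik3r4, its scaffold, -0.47 (SE 0.18, adjusted p = 0.0497). Pik3c3 lost its call in 3 of 15 alternatives (without vehicle 1, vehicle 3 or AOA 3) and Pik3r4 in 7 of 15, with adjusted p up to 0.111 and 0.148. Differences between the subunits were not tested.

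Of the ATG2 and ATG9 genes, which supply lipid to the growing membrane, 3 of 4 were called lower, against 26.8% of all genes. Atg2a, a bridge along which lipids flow from the endoplasmic reticulum, stood at 201, 122 and 181 CPM with vehicle and 46.7, 67.6 and 61.1 CPM with AOA. Its log2 fold change was -1.52 (SE 0.21, adjusted p = 0.000433), and the groups lay far apart in each mouse. Atg2b, the other bridge, stood between 73.2 and 76.9 CPM with vehicle and between 55.9 and 80.3 CPM with AOA, with a log2 fold change of -0.13 (SE 0.15, adjusted p = 0.492). Of the ATG9 scramblases, Atg9b fell from 16.0, 11.9 and 15 CPM to 7.13, 7.93 and 6.96 CPM, a log2 fold change of -0.96 (SE 0.19, adjusted p = 0.0026). Atg9a had a like difference, with a log2 fold change of -0.89 (SE 0.14, adjusted p = 0.000964). In Atg9a 40.7% of 75-base windows are shared with other annotated genes, mainly the overlapping model Gm29253, so its counts are uncertain.

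In the machinery that attaches ATG8 proteins to the membrane, the called genes went both ways. Of the 27 autophagy members only Atg3, the E2-like enzyme that passes the ATG8 protein to its lipid, was called higher. Atg3 rose from 44.3, 52.0 and 52.9 CPM to 74.0, 64.1 and 72.9 CPM. Its log2 fold change was 0.50 (SE 0.13, adjusted p = 0.0113), and it was higher in all 3 mice. Atg16l2 fell from 74.1, 56.2 and 59.7 CPM to 22.7, 26.1 and 24.6 CPM, a log2 fold change of -1.37 (SE 0.15, adjusted p = 0.000125). Its paralogue Atg16l1, the form known to place the conjugation machinery on the membrane, had a log2 fold change of -0.34 (SE 0.15, adjusted p = 0.0775). Atg12, the ubiquitin-like partner of Atg5, fell by 0.58 on the log2 scale (SE 0.17, adjusted p = 0.0193), with adjusted p between 0.00625 and 0.0801 over the alternatives. That call was lost without vehicle 1, vehicle 3, AOA 2 or AOA 3. Atg5 (log2 fold change 0.38), the E1-like Atg7 (-0.23) and the E2-like Atg10 (0.11) were not called. Atg5 was higher in all 3 mice and was called without vehicle 2. Of the ATG4 proteases, which trim and recycle ATG8 proteins, Atg4a, Atg4b and Atg4d had log2 fold changes of 0.23, -0.05 and 0.09 and were not called. Atg4a shares 52.0% of its 75-base windows with the pseudogene Atg4a-ps, and antisense Kri1 covers 19.3% of the exon bases of Atg4d. Only Atg4c passed the test, with a log2 fold change of -1.53 from a level of 1.37 CPM, a call lost without AOA 1 or AOA 3. Atg4c entered the test through the vehicle libraries only, so its direction was largely fixed by the filter.

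Of the 5 ATG8 genes, 3 were called lower, against 26.8% of all genes. Gabarap, per base the most abundant of them with 53.1% ± 6.20 (SD, n = 3) of their summed TPM (counts scaled to gene length and library size) in vehicle cultures, fell from 191, 244 and 206 CPM to 142, 126 and 130 CPM, a log2 fold change of -0.69 (SE 0.14, adjusted p = 0.00313). Map1lc3b, the LC3 form usually followed as the marker of autophagosomes, fell from 104, 99.1 and 108 CPM to 79.2, 60.1 and 54.5 CPM, a log2 fold change of -0.68 (SE 0.16, adjusted p = 0.0058). Map1lc3a was scarce, at 10.5, 7.23 and 7.55 CPM with vehicle and 2.02, 2.96 and 1.82 CPM with AOA, a log2 fold change of -1.89 (SE 0.28, adjusted p = 0.000628). In each of these genes the groups did not overlap. Gabarapl1 stood at 87.3, 58.9 and 92.4 CPM with vehicle and 68.2, 68.1 and 54.8 CPM with AOA, a log2 fold change of -0.32 (SE 0.19, adjusted p = 0.174). Gabarapl2 stood at 56.8, 44.4 and 58.1 CPM with vehicle and 60.2, 39.4 and 37.2 CPM with AOA, a log2 fold change of -0.22 (SE 0.20, adjusted p = 0.389). In these last genes the groups overlapped, antisense 1700101I11Rik covers 28.3% of the exon bases of Gabarapl1, which was called lower only without vehicle 2, and Gabarapl2 was called only without AOA 1. In the makeup of the ATG8 pool, Gabarap held 49.4% ± 3.52 with AOA, and Map1lc3b went from 16.9% ± 0.744 to 15.6% ± 1.16. Map1lc3a went from 2.26% ± 0.54 to 0.912% ± 0.284, Gabarapl1 from 12.5% ± 2.89 to 15% ± 1.55 and Gabarapl2 from 15.2% ± 2.25 to 19.1% ± 2.84 (SD, n = 3).

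Sqstm1 (chr11:50199366-50210827 in GRCm38), which encodes the cargo receptor p62, had the largest log2 fold change of the autophagy members with at least 10 CPM in the vehicle cultures. It stood at 340, 509 and 320 CPM with vehicle and 90.5, 121 and 110 CPM with AOA. The highest AOA library was below the lowest vehicle library by far, and the log2 fold change was -1.86 (SE 0.21, adjusted p = 0.00014), a level 3.63-fold lower. Antisense Mrnip covers 17.3% of its exon bases. Of 11 further cargo receptors tested, 4 were lower, against 26.8% of all genes, and 0 were higher, against 26.2% (0 also at an unadjusted p under 0.05, in DESeq2 and in limma), and the median log2 difference was -0.10. Those lower were Calcoco1 (-2.12, a receptor for the endoplasmic reticulum), Nbr1 (-0.82), Tax1bp1 (-0.64) and the mitophagy receptor Bnip3l (-0.52), as log2 fold changes. The call of Bnip3l was lost without vehicle 1, vehicle 3, AOA 2 or AOA 3, with adjusted p up to 0.154. Bnip3, Fundc1, Optn and Tollip were among those not called.

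**Figure D2:**
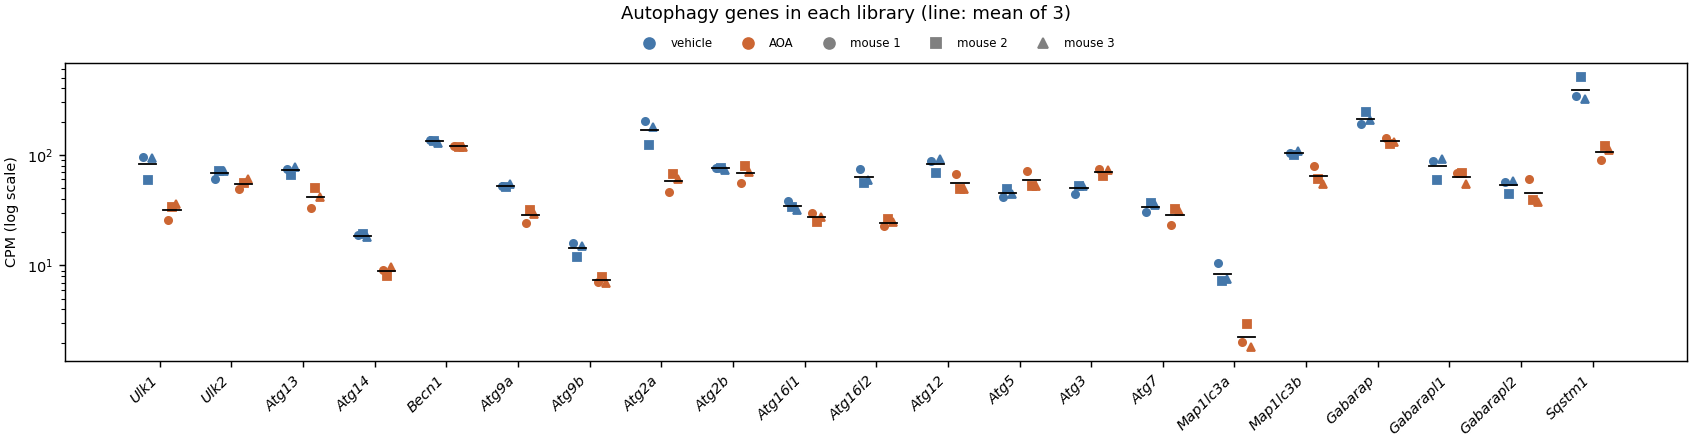
Level in CPM (log axis) of the autophagy genes from Ulk1 to Sqstm1, a point for each library (shape for the mouse) and a line for the mean of 3, vehicle beside AOA. The groups are apart for Sqstm1, Atg2a, Ulk1 and Atg16l2, and overlap for Gabarapl1 and Gabarapl2.

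The ratio between related genes was read in 7 pairs. They were chosen after their values were seen, so that 6 of them separated the groups is a description with no test, and among all single genes 62.1% did not overlap either. The log2 count ratio of Ulk1 to Ulk2 was 0.67, -0.29 and 0.40 with vehicle and -0.94, -0.70 and -0.76 with AOA. For Atg2a to Atg2b it was 1.40, 0.66 and 1.31 with vehicle and -0.26, -0.25 and -0.21 with AOA. Per base, Atg2a thus held 77.5% ± 5.0 of the summed ATG2 TPM with vehicle and 57.6% ± 0.437 with AOA, and Ulk1 57.0% ± 8.39 and 39.1% ± 2.02 of the ULK pair (SD, n = 3). Atg16l2 held 72.8% ± 1.58 and 56.8% ± 4.13 of its pair. The pair that kept its ratio was Atg9b to Atg9a, with means of -1.89 and -1.95 on the log2 scale.

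**Figure D3:**
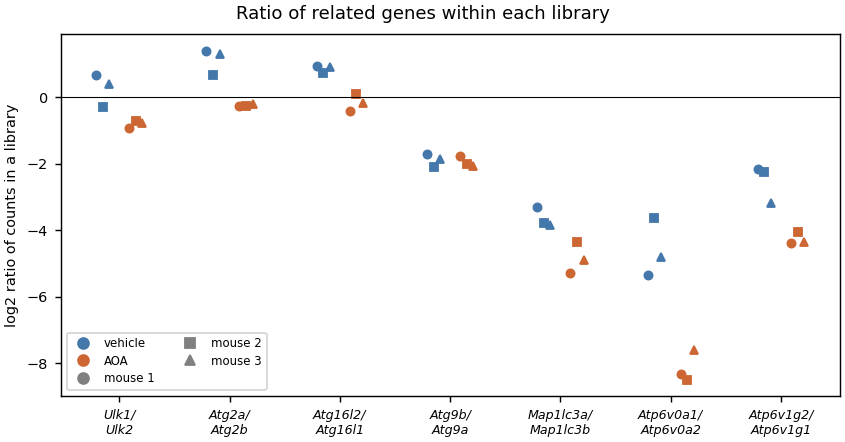
Log2 ratio of counts between related genes in each library, vehicle beside AOA, for 7 pairs. The groups are apart in 6 pairs and overlap for Atg9b to Atg9a.

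Autophagy genes that the symbols did not take were read as well. Of 19 tested, 2 were higher and 8 were lower, against 26.2% and 26.8% of all genes, and the median log2 difference was -0.17, where 1 higher, 13 lower and -0.34 held for the 27 members. The named ones that fell were Tecpr1 (-1.72), which tethers autophagosomes to lysosomes, Wdr45 (-1.55), which binds the lipid of the early membrane, and Stx17 (-1.26), the SNARE of the finished autophagosome. Tmem41b (0.93), a scramblase of the endoplasmic reticulum, rose. Wdr45b (0.48) was called higher too, but lost the call in 7 of 15 alternatives, among them limma and leaving out any library but AOA 3, with adjusted p up to 0.1. Tecpr1 was abundant in vehicle cultures, at 686, 396 and 586 CPM, and stood at 148, 184 and 175 CPM with AOA.

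The cathepsins did not move together. Of 11 tested, 2 were higher (18.2%, against 26.2% of all genes) and 5 were lower (45.5%, against 26.8%), and the median log2 difference was 0.01. That median was the value of Ctsb. It became -0.26 without vehicle 1, -0.31 without AOA 1 or AOA 2 and -0.36 without AOA 3, where a further cathepsin passed the filter, and -0.60 with no filter. Per base the pool was led by Ctsd, an aspartic protease, which held 50.6% ± 8.05 of the summed cathepsin TPM with vehicle and 36.4% ± 0.384 with AOA (SD, n = 3). Next stood Ctsw, a cysteine protease largely restricted to cytotoxic lymphocytes, with 18.5% ± 0.532 and 28.4% ± 2.07. In TPM the order with vehicle was Ctsd (1050 ± 424), Ctsw (371 ± 76.9), then Ctss (138 ± 34.6), Ctsa (137 ± 7.69), Ctse (112 ± 19.6) and Ctsb (99.2 ± 2.63), in which the neighbours Ctss and Ctsa, and Ctse and Ctsb, did not differ beyond their spread.

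Ctsa, the serine carboxypeptidase that protects lysosomal galactosidase and sialidase, had the smallest adjusted p of the cathepsins. It stood at 235, 245 and 240 CPM with vehicle and 101, 120 and 100 CPM with AOA. The groups lay apart with little spread, and the log2 fold change was -1.16 (SE 0.13, adjusted p = 0.000145). Antisense Neurl2 and Pltp cover 17.4% of its exon bases. Neu1, the sialidase that it protects, also fell, with a log2 fold change of -1.32 (SE 0.18, adjusted p = 0.000399).

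Ctsd stood at 781, 1390 and 768 CPM with vehicle and 533, 506 and 517 CPM with AOA. Vehicle 2 was far above the rest, and the AOA libraries were nearly equal. The log2 fold change was -0.92 (SE 0.24, adjusted p = 0.00967), and without vehicle 2 it was -0.54 and still called, with adjusted p between 0.000312 and 0.0368 over the alternatives. The overlapping gene model Gm49369 shares 35.8% of its 75-base windows. Ctse, the other aspartic protease, stood at 123, 88.1 and 134 CPM with vehicle and 59.2, 74.6 and 89.1 CPM with AOA. Here the groups overlapped by 1 library, and the log2 fold change was -0.63 (SE 0.20, adjusted p = 0.0239). That call was lost without vehicle 1, vehicle 3, AOA 1 or AOA 2, with adjusted p between 0.00529 and 0.103 over the alternatives.

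The 2 cathepsins called higher, beside 26.2% of all genes, were cysteine proteases. Ctsc, which activates granzymes by removing their dipeptide, went from 91.2, 97.9 and 104 CPM to 151, 153 and 147 CPM, a log2 fold change of 0.62 (SE 0.12, adjusted p = 0.00235). Ctsz, a carboxypeptidase, went from 42.1, 41.3 and 45.9 CPM to 51.3, 56.7 and 61.3 CPM, a log2 fold change of 0.39 (SE 0.13, adjusted p = 0.0306). In both genes every AOA library was above every vehicle library. The call of Ctsz was lost with the length trend removed and without vehicle 1, vehicle 3, AOA 2 or AOA 3, with adjusted p between 0.0143 and 0.129. Ctsb was level at 230, 224 and 229 CPM with vehicle and 228, 235 and 227 CPM with AOA, a log2 fold change of 0.01 (SE 0.12, adjusted p = 0.928), with antisense Fdft1 over 12.8% of its exon bases. Ctsw, Ctss and Ctso had log2 fold changes of 0.22, 0.25 and 0.09 and were not called. Ctsw was called higher without vehicle 2 and Ctss without vehicle 3.

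The remaining cathepsins were scarce. Ctsl stood at 32.0, 12.1 and 23.8 CPM with vehicle and 13.8, 12.9 and 8.78 CPM with AOA, so vehicle 2 lay among the AOA libraries. Its log2 fold change was -0.93 (SE 0.33, adjusted p = 0.0378), a call lost in limma and on leaving out any library but vehicle 2, with adjusted p between 0.00149 and 0.171. Antisense Gm47123 covers 26.8% of the exon bases of Ctsl. Ctsf fell from 2.22, 4.69 and 4.67 CPM to 0.460, 1.00 and 0.252 CPM (log2 fold change -2.76), and it was tested only because the vehicle libraries were high. Ctsh and Ctsg, proteases of myeloid cells among others, were too low to be tested, although Ctsh was tested and called lower with no filter and without vehicle 1. Their counts were 4, 64 and 13 with vehicle and 5, 5 and 2 with AOA for Ctsh, and 0, 46 and 1 with vehicle and 0 in each AOA library for Ctsg, which allows up to 0.0496 CPM (3 counts over the group, counting error only). Most counts of both came from vehicle 2.

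**Figure D4:**
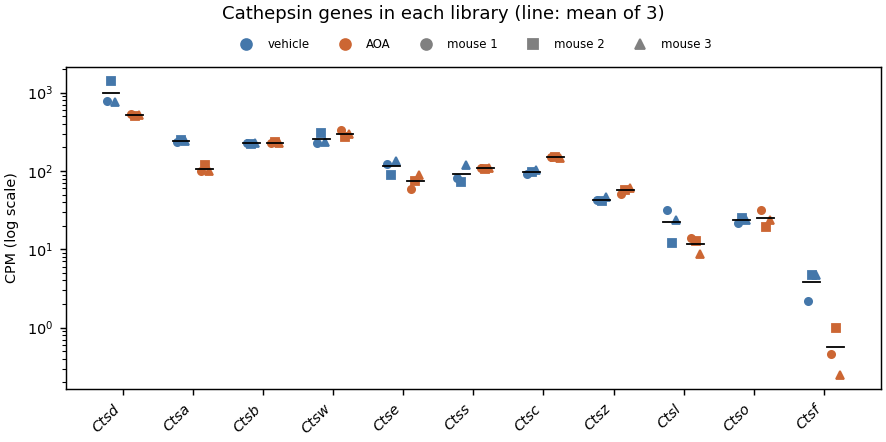
Level in CPM (log axis) of the 11 tested cathepsins in each library (shape for the mouse), with a line for the mean of 3, vehicle beside AOA. Ctsb is level, Ctsa and Ctsd are lower and Ctsc is higher with AOA, and vehicle 2 stands out for Ctsd.

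Transcripts of other cell types moved with these values. Of 12 myeloid markers 8 were in the table, and their CPM summed to 71.5, 128 and 70.8 with vehicle and to 9.24, 19.6 and 12.3 with AOA. Of 6 tested, 4 were lower and 0 were higher, against 26.8% and 26.2% of all genes (0 also at an unadjusted p under 0.05, in DESeq2 and in limma). Those lower were Itgam (-5.25), Fcgr3 (-4.02), Tyrobp (-3.04) and Cd68 (-1.91), as log2 fold changes. Fcgr3 stood at 0.0919, 0.846 and 0.151 CPM with AOA. It passed the filter on low counts through the vehicle libraries only, so its direction was largely fixed by the filter. Tyrobp was highest in vehicle 2, stood at -1.46 without that library, and lost its call without AOA 1, with adjusted p between 0.000583 and 0.0598 over the alternatives. Itgam and Tyrobp are also made by activated T cells or NK cells. The macrophage-defining Lyz2 had 0 to 0.317 CPM with vehicle and 0.101 to 1.16 CPM with AOA, and Csf1r and Adgre1 had no row. The NK cell markers summed to 65.2, 135 and 30.3 CPM with vehicle and 14.8, 19.7 and 8.02 CPM with AOA, mostly from Klrb1c and Klre1, both called lower. Ncr1 had 0, 37 and 0 counts with vehicle and 5, 11 and 3 with AOA, and was not tested. Klra8 and Klra4 had no row. The 5 B cell markers in the table went the other way, summing to 13.9, 18.4 and 17.6 CPM with vehicle and 30.9, 26.1 and 23.1 CPM with AOA, mostly from Cd79b (log2 fold change 1.01, adjusted p = 0.00172), while Cd22 was lower (-1.67) and Cd79a and Ms4a1, not called, stayed at or below 2.28 CPM in every library. Cd22 stood at 0.23, 0.581 and 0.504 CPM with AOA and also passed the filter through the vehicle libraries only. Vehicle 2 was the highest library in the myeloid and NK sums, as it was for Ctsd, Ctsh, Ctsg and Sqstm1. The part of these cells in the cathepsin and autophagy results was not tested.

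Of 11 tested genes on a list of cathepsin inhibitors, 1 was higher and 6 were lower, against 26.2% and 26.8% of all genes, and the median log2 difference was -0.71. Serpinb6b, a serpin of cytotoxic cells, fell from 711, 330 and 619 CPM to 63.6, 55.0 and 37.3 CPM. Ctla2a and Ctla2b, which resemble the propeptide of cysteine cathepsins and are known from activated T cells, fell by 2.60 and 3.13 on the log2 scale. Cst7, the cystatin that inhibits Ctsc and Ctsl, fell by 0.71 (SE 0.18, adjusted p = 0.00862). The 1 called higher was Bsg, which was on the list although it is chiefly a chaperone of lactate transporters, with a log2 fold change of 0.86.

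Of 17 V-ATPase genes tested, 2 were higher (11.8%, against 26.2% of all genes), 4 were lower (23.5%, against 26.8%) and 11 were not called, and the median log2 difference was 0.09. In the cytosolic V1 sector, which hydrolyses ATP, Atp6v1h rose from 45.2, 48.4 and 48.9 CPM to 96.6, 73.3 and 75.8 CPM, a log2 fold change of 0.78 (SE 0.14, adjusted p = 0.00175). Atp6v1c1 rose from 46.9, 54.8 and 48.9 CPM to 87.8, 68.8 and 75.8 CPM, a log2 fold change of 0.63 (SE 0.14, adjusted p = 0.00486). Subunits H and C are those that govern whether V1 stays joined to the membrane sector. Both rose in all 3 mice, and most in mouse 1.

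Atp6v1d, part of the central rotor, fell from 162, 128 and 179 CPM to 101, 93.4 and 103 CPM, a log2 fold change of -0.66 (SE 0.15, adjusted p = 0.00546). Atp6v0d1, which joins the rotor to the membrane ring, fell from 84.8, 93.5 and 91.7 CPM to 65.5, 63.7 and 66.2 CPM, a log2 fold change of -0.47 (SE 0.12, adjusted p = 0.0084). The latter call was lost without vehicle 3, with adjusted p between 0.00246 and 0.0509 over the alternatives. The catalytic subunit Atp6v1a, with a log2 fold change of 0.33 (SE 0.14, adjusted p = 0.0706), and Atp6v1b2, with -0.01 (SE 0.13, adjusted p = 0.935), were not called. Atp6v1a was called higher with the length trend removed and without vehicle 2. The proton-carrying ring subunits Atp6v0b and Atp6v0c, with -0.03 and -0.22, and the accessory proteins Atp6ap1 and Atp6ap2, with 0.09 and 0.42, were not called either. Atp6v0c shares 11.2% of its 75-base windows with pseudogenes.

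The subunits that exist in several forms changed in makeup. Atp6v0a1, the a subunit form best known from neurons, stood at 3.65, 12.1 and 5.05 CPM with vehicle and 0.460, 0.476 and 0.807 CPM with AOA. Vehicle 2 was again highest, and the log2 fold change of -3.57 (SE 0.52, adjusted p = 0.000506) was -2.87 without it. Atp6v0a1 passed the filter on low counts through the vehicle libraries only. Its direction was largely fixed by the filter, also in the count of V-ATPase genes called lower. Tcirg1, the a3 form of lysosomes and secretory granules, whose symbol is outside the rule, fell from 130, 90.6 and 94.0 CPM to 48.0, 42.8 and 40.0 CPM, a log2 fold change of -1.26 (SE 0.17, adjusted p = 0.000332). Atp6v0a2, the form of the Golgi and endosomes, was level, with a log2 fold change of 0.10 (SE 0.12, adjusted p = 0.539). Per base, Atp6v0a2 held 45.5% ± 3.85 of the summed TPM of these 3 genes with vehicle and 68.9% ± 3.21 with AOA, and Tcirg1 51.6% ± 5.51 and 30.8% ± 3.26 (SD, n = 3). In the G subunit, the minor form Atp6v1g2 fell by 1.52 on the log2 scale (SE 0.31, adjusted p = 0.00303) and the common form Atp6v1g1 had a log2 fold change of 0.27 (SE 0.19, adjusted p = 0.255). Among 9 V-ATPase genes outside the rule, 2 were higher and 2 were lower, near the 26.2% and 26.8% of all genes. Those higher were the assembly factors Vma21 (1.10) and Ccdc115 (0.90), and those lower were Tcirg1 and Rnasek (-0.80), as log2 fold changes.

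The V-ATPase differences were not alike in the 3 mice. Mouse 1 had the highest AOA minus vehicle difference in 12 of 17 V-ATPase genes (70.6%), against 38.6% of all genes, and AOA 1 was the highest of all libraries in 8 of 17 (47.1%), against 24.9% of all genes. The median difference over the family was 0.31 in mouse 1, -0.08 in mouse 2 and 0.07 in mouse 3 on the log2 scale. Without vehicle 2, Atp6ap2, Atp6v0e and Atp6v1a were called higher too, making 5 of 17, and without AOA 1 the count was 2. The pattern was noticed in the data and has no test.

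**Figure D5:**
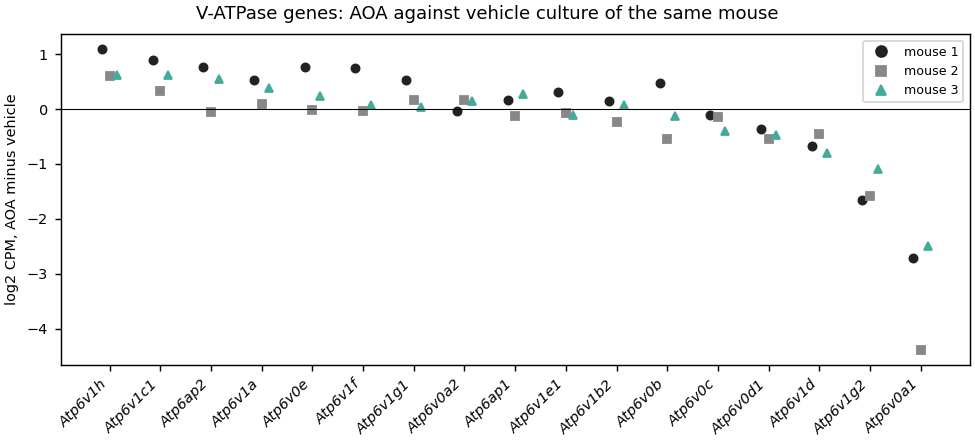
AOA minus vehicle difference (log2) of each V-ATPase gene in each of the 3 mice. The points of mouse 1 are the highest in 12 of 17 genes, and Atp6v0a1 and Atp6v1g2 lie below 0 in every mouse.

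The lysosomal membrane glycoproteins Lamp1 and Lamp2 were not called. Lamp1, also the degranulation marker CD107a, stood at 232, 284 and 238 CPM with vehicle and 287, 327 and 286 CPM with AOA, a log2 fold change of 0.26 (SE 0.14, adjusted p = 0.162). It was higher in each of the 3 mice and was called without vehicle 2. Lamp2 stood at 69.1, 82.2 and 85.1 CPM with vehicle and 79.9, 63.1 and 66.0 CPM with AOA, a log2 fold change of -0.18 (SE 0.15, adjusted p = 0.326). With Tfeb and Tfe3, 0 of these 4 genes were called by edgeR, DESeq2 or limma, where edgeR called 53.0% of all genes. Of the 4, 0 had an unadjusted p under 0.05.

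Other lists of lysosomal genes are set beside the 26.2% of all genes that were higher and the 26.8% that were lower. Of 21 other lysosomal membrane proteins tested, 0 were higher (1 at an unadjusted p under 0.05, 0 in DESeq2 and in limma) and 11 were lower, and the median log2 difference was -0.60. Among these were Slc38a9 (-1.77), the arginine sensor that signals to mTORC1, Cln3 (-1.52) and Sidt2 (-1.43), a channel for nucleic acids. Of 35 hydrolases other than cathepsins, 2 were higher and 16 were lower, with a median of -0.36. Galc (-1.58) and the phospholipase Pla2g15 (-1.25) fell, while the beta-glucuronidase Gusb (1.05) rose. Of 17 trafficking genes that carry enzymes to the lysosome, 3 were higher and 4 were lower, with the adaptor Gga2 at 1.55 and the mannose-6-phosphate receptor Igf2r at -0.83, as log2 fold changes.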

How the data were processed

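RNA of 6 cultures was sequenced as stranded, paired-end mRNA libraries. Alignment by the authors used STAR with its defaults. The deposited values are raw counts per gene, from reads that mapped uniquely, beside a gene length. Per the labels, the submitters' processing notes also name featureCounts, DESeq2, bcl2fastq and the build mm10, without their roles. No source used here gives the annotation, strand setting or gene filter. 1 row without a symbol, which cannot be a member, was kept in the tests.

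The members and gene lists were chosen with earlier results of these data known. The whole table of counts was fitted by edgeR 4.0.16 (R 4.3.3): filterByExpr (minimum count 10, 11759 genes kept), TMM normalisation, robust quasi-likelihood test of AOA against vehicle, Benjamini-Hochberg adjustment over all genes tested and a threshold of 0.05. The scripts were tested on simulated data. CPM used TMM library sizes, and TPM was computed from the deposited lengths, for levels between genes only. Per-mouse differences are of log2 CPM with a prior count of 2. Alternatives were DESeq2 1.42.0, limma 3.58.1 (voom), other scalings and filters, a fold threshold, the replicate block, removal of the length trend, and leaving out each library.

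The replicate number marks a mouse that gave both cultures, so libraries are paired by donor. Deviations from group means correlated between the libraries of a mouse with r = 0.0868, 0.189 and 0.194 over 11759 genes. Replicates of a group differed by a chi-square of 10.0 to 71.1 per gene, beyond sampling noise. p-values measure the spread between 3 mice. Per family, values in full were given for up to 6 called members per direction, by absolute log2 fold change, if the 3 mice moved alike and the higher group had a mean of 10 CPM or more. Full values were also given for the ATG8 genes, Sqstm1, Ulk1, Ulk2, Becn1, Lamp1, Lamp2, Tfeb and Tfe3, and up to 3 genes per direction from each list. Other members, and the list genes Bnip3l, Cst7, Lamtor2, Lamtor4, Lamtor5, Pik3c3, Pik3r4 and the markers of other cell types, were named after their values were seen. Overlaps were read from GENCODE annotation of GRCm38, and promoter windows are RefSeq's. Protein sequences were not used here. The values of some list genes are not reported here.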

Additional observations from a re-analysis of the deposited data

How the results depend on the processing

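No gene named changed direction against the reported fit where it was called. With the replicate block (the mouse as a term), 27 members were called, all of them among the 27 of the reported fit, and among all genes 6292 were called, 6007 of them shared. The block thus changed no call of a member. DESeq2 called 27 members and limma 26, losing Ctsl. A required log2 fold change of 1 or more in size left 0 members higher and 11 lower, with 0 and 7 autophagy genes, 0 and 2 cathepsins and 0 and 2 V-ATPase genes, and over all genes 1418 higher and 1663 lower. Requiring at least 10 CPM in 3 libraries left 2 V-ATPase genes lower, since Atp6v0a1 and Atp6v1g2 were not tested. Removing the length trend left 1 cathepsin higher, Ctsc, with or without the replicate block. On leaving out each library in turn, members higher ranged from 4 to 11 and members lower from 18 to 23. Autophagy genes ranged from 1 to 2 higher and 11 to 14 lower, cathepsins from 1 to 3 higher and 3 to 5 lower, and V-ATPase genes from 2 to 5 higher and 3 to 4 lower. The highest counts higher came without vehicle 2, which gained 7 calls (Atg5, Atp6ap2, Atp6v0e, Atp6v1a, Ctsw, Gabarapl1 and Lamp1) and lost 0, and the cause was not tested. Depth limits Ctsg, Ctsh, Atg4c, Ctsf and the AOA level of Atp6v0a1, where 1 CPM is 12.6 to 21.8 counts.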
